A study of Sus scrofa with 22 samples.

Results

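MX1, ISG15, RSAD2 and XAF1 are 4 genes switched on by type I interferon, and their transcript levels were followed in pig tissue through 4 ages, from the late fetus to the grown pig. All probe sets annotated to only 1 of these gene symbols were taken, which gave 7 of the 24123 probe sets on an Affymetrix porcine expression array, for 4 of the 6765 genes named there. MX1 (gene ID 397128), ISG15 (gene ID 100145895) and XAF1 (gene ID 102159947) had 1 probe set each. RSAD2 (gene ID 396752) had 1 ordinary probe set and 3 array control probe sets, which target the 5′ end, the middle and the 3′ end of the transcript.

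Type I interferons are secreted when a cell senses viral or other misplaced nucleic acid. They bind a receptor made of IFNAR1 and IFNAR2, the kinases JAK1 and TYK2 are activated, and a complex that contains STAT2 and IRF9 enters the nucleus and switches on interferon-stimulated genes. MX1 is a dynamin-like GTPase that blocks incoming viral ribonucleoprotein. RSAD2 (viperin) is a radical SAM enzyme that makes a chain-terminating nucleotide. ISG15 is a ubiquitin-like protein that is attached to other proteins, and XAF1 binds the apoptosis inhibitor XIAP and favours cell death.

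The 22 samples came from offspring of German Landrace gilts, all of which had received the gestational adequate protein (AP) diet, so no other diet is compared here. There were 6 samples at 94 dpc (days post conception, a fetal age), 6 at 1 dpn (days post natum), 6 at 28 dpn and 4 at 188 dpn. Sampling covered the offspring of 3 gilts per age without stating which animals shared a dam, so some may be littermates and the p-values may be too small. The labels of the samples name liver and the study title names muscle. The muscle genes MYL1, a myosin light chain, and CKM, creatine kinase, had signals of 38536 to 97218 and 34294 to 86789 over the 22 arrays, whereas the liver gene ALB, albumin, ranged from 6.14 to 3173 with a median of 232. Other liver genes were brighter than ALB, with APOA1, an apolipoprotein, at 646 to 12788 and AHSG, fetuin, at up to 21645. The sum of 10 liver genes was at most 53446, on 94 dpc replicate 1, where the sum of 9 muscle genes was 292460. The muscle sum was at least 239870 on each of the 22 arrays, above the highest liver sum.

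Signals are linear and were scaled by the authors to a common mean of 500 on every array after trimming. Differences are given as log2(signal + 16), later age minus earlier age, with a moderated standard error from limma, and a probe set was called at a Benjamini-Hochberg adjusted p under 0.05 over 24029 tested probe sets. Background was taken as a signal of 69.7, below which lay 95% of the values of 23 controls for sequences not in pig RNA. At 1 dpn the RNA was uneven along transcripts on 4 of 6 arrays. The ratio of 5′ to 3′ GAPDH signal was 0.14 to 0.33 on replicates 2 to 5, against 1.14 and 1.15 on replicates 1 and 6, and the other ages ranged from 0.73 to 1.26. Replicate numbers only name the samples. Because tissue pieces were measured whole, a smaller share of expressing cells and less RNA per cell cannot be told apart.

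All 4 genes had their highest mean at 28 dpn. Over the 4 ages the F test called 6 of the 7 probe sets, the RSAD2 5′ control being the exception, beside 51.4% of all tested. Against 94 dpc, all 7 probe sets were called higher at 28 dpn, the 4 ordinary ones among them. The 7 include the RSAD2 5′ control, which was below background on all 22 arrays. Of all tested, 30.4% were called there, 13.1% higher and 17.2% lower. Against 1 dpn, 4 of 7 were called higher at 28 dpn (ISG15, XAF1, the ordinary RSAD2 probe set and the RSAD2 middle control) and none lower. Of all tested, 22.4% were called in that comparison, 14% higher and 8.38% lower. From there the levels dropped: at 188 dpn the ordinary probe sets of all 4 genes were called lower than at 28 dpn, and in each of them every 188 dpn array lay below every 28 dpn array. Of all tested probe sets, 11.8% were called at 188 dpn against 28 dpn, 3.65% higher and 8.2% lower, and 8.14% were lower without overlap. At 1 dpn none of the 7 was called against 94 dpc, where 32.7% of all tested were called, 11% higher and 21.7% lower. At 188 dpn 1 of the 7 was called higher and 1 lower than at 94 dpc, beside 36.2% of all tested (13.7% higher, 22.5% lower). Against 1 dpn 1 was called higher and 2 lower at 188 dpn, beside 29.9% of all tested (14.2% higher, 15.7% lower). The median log2 difference of the 4 ordinary probe sets was 2.02 at 28 dpn against 94 dpc, 1.61 at 28 dpn against 1 dpn and -2.53 at 188 dpn against 28 dpn, beside 0.02, 0.10 and -0.12 over all tested probe sets. These comparisons share their 28 dpn arrays, so they are not independent of one another.

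**Figure D1:**
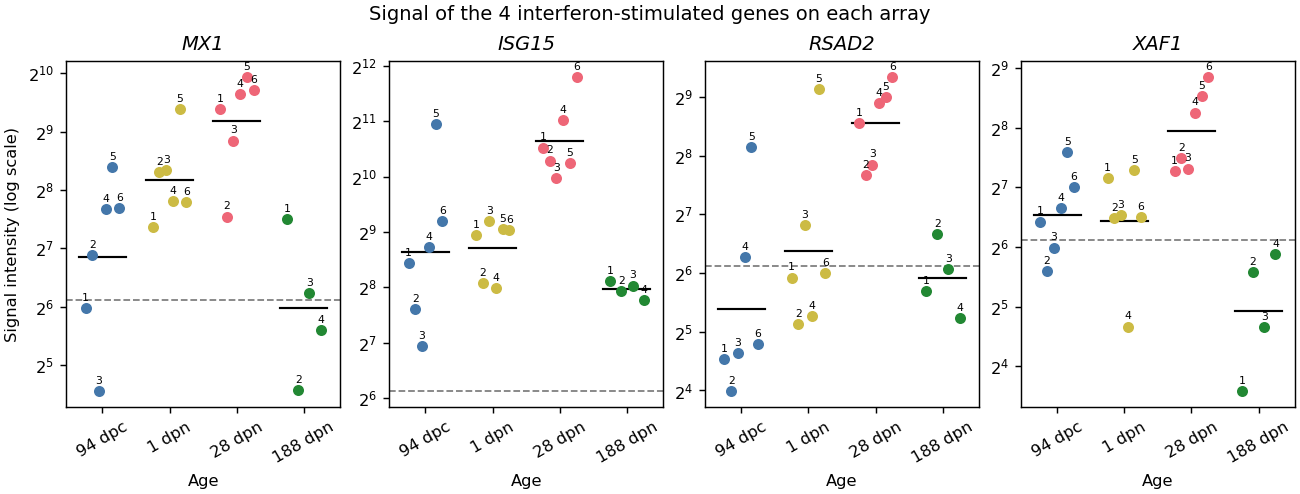
Signal of the 4 genes on each array, on a log axis, by age from 94 dpc to 188 dpn. Each point is 1 array with its replicate number, the horizontal bar is the mean of the log2 values and the dashed line is the background of 69.7. All 28 dpn points lie above all 188 dpn points in each of the 4 genes.

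MX1 was called higher at 28 dpn than at 94 dpc and lower at 188 dpn than at 28 dpn. Its signal had a lowest, median and highest value of 23.5, 161 and 336 at 94 dpc, of 165, 270.4 and 666 at 1 dpn, and of 187, 732 and 980 at 28 dpn. The 4 values at 188 dpn were 181, 23.9, 75.2 and 48.5. The ranges overlapped between all pairs of ages except 28 dpn and 188 dpn, where 181 at 188 dpn stood just below 187 at 28 dpn. The mean signal was 655 ± 289 at 28 dpn (SD, n = 6), against 158 ± 114 at 94 dpc (SD, n = 6), a log2 difference of 2.11 (SE 0.49, adjusted p = 0.00234) or 4.31-fold. At 188 dpn it was 82.2 ± 69.2 (SD, n = 4), a log2 difference from 28 dpn of -2.86 (SE 0.55, adjusted p = 0.0016), which is 7.25-fold lower, with 2 of 4 arrays at 188 dpn below background.

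Of the 4 genes, MX1 alone was not called at 28 dpn against 1 dpn. The log2 difference was 0.98 (SE 0.49, 95% interval -0.05 to 2.00, adjusted p = 0.170), so it does not show that the level stayed the same. The earlier step, 1 dpn against 94 dpc, had a log2 difference of 1.13 (SE 0.49, adjusted p = 0.0841). Without 94 dpc replicate 5 that difference was 1.40 and it was called. MX1 was called lower at 188 dpn than at 1 dpn, with a log2 difference of -1.88 (SE 0.55, adjusted p = 0.0117), and 188 dpn against 94 dpc was not called at -0.75 (SE 0.55, adjusted p = 0.320). The call against 1 dpn was lost without 188 dpn replicate 2, with an adjusted p of 0.0604. It was also lost when only the 2 evenly covered 1 dpn arrays were kept, where the log2 difference was -1.33 (adjusted p = 0.25).

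RSAD2 was near background outside 28 dpn, apart from single animals. Its ordinary probe set had a lowest, median and highest signal of 15.8, 26.3 and 284 at 94 dpc, 35.2, 62.3 and 561 at 1 dpn, and 205, 427 and 650.3 at 28 dpn. The values at 188 dpn were 52.0, 101, 66.9 and 37.6. All 6 arrays at 28 dpn were above background, against 2 of 6 at 94 dpc, 2 of 6 at 1 dpn and 1 of 4 at 188 dpn. In both early ages replicate 5 carried the maximum: without it, the highest signal was 77.1 at 94 dpc and 113 at 1 dpn. Those 2 arrays overlapped the 28 dpn range, and no 188 dpn array did.

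The ordinary RSAD2 probe set was called higher at 28 dpn than at both earlier ages. The mean signal was 408 ± 172 at 28 dpn, against 75.5 ± 105 at 94 dpc (SD, n = 6 each), a log2 difference of 2.64 (SE 0.54, adjusted p = 0.000747) or 6.24-fold. Against 1 dpn the log2 difference was 1.92 (SE 0.54, adjusted p = 0.0130) or 3.77-fold, and 188 dpn against 28 dpn gave -2.35 (SE 0.61, adjusted p = 0.0130), 5.09-fold lower. Since most arrays of the other ages lay below background, these folds rest partly on signals not well above it. No difference among 94 dpc, 1 dpn and 188 dpn was called, with log2 values of 0.73 for 1 dpn against 94 dpc, 0.29 for 188 dpn against 94 dpc and -0.43 for 188 dpn against 1 dpn.

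The 3 RSAD2 control probe sets were dimmer than the ordinary probe set, and they differed by position. The 5′ control was below background on all 22 arrays, and its call at 28 dpn against 94 dpc, a log2 difference of 0.49, lies within signals that are not above background. The middle control was above background on 5 of 6 arrays at 28 dpn, 1 of 4 at 188 dpn and none at 94 dpc or 1 dpn. Its signal was 66.9 to 94.9 at 28 dpn, against 6.92 to 32.7 at 94 dpc and 5.31 to 44.4 at 1 dpn, without overlap (adjusted p = 0.00015 and 0.00017). Without overlap, 9.33% of tested probe sets were higher at 28 dpn than at 94 dpc and 5% higher than at 1 dpn. The 3′ control passed background on 3 of 6 arrays at 28 dpn, 1 of 6 at 1 dpn and no array at the other ages.

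The middle control did not show the drop seen with the ordinary probe set. Its signal was 41.6 to 73.0 at 188 dpn, against 66.9 to 94.9 at 28 dpn, a log2 difference of -0.48 (SE 0.26, adjusted p = 0.271). At 188 dpn it was called higher than at 94 dpc (log2 0.86, adjusted p = 0.0119, without overlap, as in 13.8% of all tested) and than at 1 dpn (log2 0.91, adjusted p = 0.0101), although 3 of the 4 arrays at 188 dpn lay below background. For RSAD2 the probe sets therefore differ on whether 188 dpn stood above the early ages.

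ISG15 was the brightest of the 4 probe sets and was above background on all 22 arrays. Its signal had a lowest, median and highest value of 123, 384 and 1976 at 94 dpc, 254, 509 and 585 at 1 dpn, and 1004, 1360 and 3570 at 28 dpn. The 188 dpn values were 277, 244, 262 and 218, the narrowest of the 4 ages, with a highest over lowest ratio of 1.27. At 94 dpc the same ratio was 16.1. The 28 dpn range lay above those of 1 dpn and 188 dpn, and it overlapped 94 dpc only through the single value of 1976, as the next value there was 585.

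The mean ISG15 signal was 1763 ± 958 at 28 dpn, against 443 ± 144 at 1 dpn (SD, n = 6 each), a log2 difference of 1.88 (SE 0.45, adjusted p = 0.00383) or 3.69-fold. Against 94 dpc the log2 difference was 1.94 (SE 0.45, adjusted p = 0.00211), 3.83-fold. At 188 dpn the mean was 250.3 ± 25.2 (SD, n = 4), and the log2 difference from 28 dpn was -2.60 (SE 0.50, adjusted p = 0.00157), 6.08-fold lower. No difference among the other 3 ages was called. The log2 difference was 0.06 at 1 dpn against 94 dpc (95% interval -0.87 to 0.98). At 188 dpn it was -0.67 against 94 dpc (95% interval -1.70 to 0.37) and -0.72 against 1 dpn (95% interval -1.76 to 0.32). These intervals do not show that the level stayed the same. When only the 2 evenly covered 1 dpn arrays were kept, the difference between 28 dpn and 1 dpn was 1.62 and was no longer called (adjusted p = 0.112).

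XAF1 was the only one of the 4 ordinary probe sets called lower at 188 dpn than at 94 dpc, a call that several single arrays decide. Its signal had a lowest, median and highest value of 48.4, 93.4 and 192 at 94 dpc, 25.4, 91.9 and 156 at 1 dpn, and 155, 242 and 462 at 28 dpn. At 188 dpn all 4 values, 12.0, 47.7, 25.2 and 58.9, lay below background. The lowest 3 arrays at 28 dpn, at 155, 159 and 179, lay within the 94 dpc range, and the lowest within the 1 dpn range.

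The XAF1 mean was 271 ± 128 at 28 dpn, against 99.4 ± 46.3 at 1 dpn (SD, n = 6 each), a log2 difference of 1.33 (SE 0.36, adjusted p = 0.00981) or 2.51-fold, and against 94 dpc the log2 difference was 1.26 (SE 0.36, adjusted p = 0.0103) or 2.39-fold. Keeping the evenly covered 1 dpn arrays alone gave 1.02 for 28 dpn against 1 dpn (adjusted p = 0.156). At 188 dpn XAF1 was at least 3.09-fold lower than at 28 dpn (adjusted p = 0.000402), counted against the background bound on the dim arrays. It was also called lower at 188 dpn than at 94 dpc, at least 1.29-fold (adjusted p = 0.0230), and than at 1 dpn, at least 1.23-fold (adjusted p = 0.0378). Of all tested probe sets, 22.5% and 15.7% were called lower in those comparisons. The call against 94 dpc was lost without 94 dpc replicate 5, 188 dpn replicate 1 or 188 dpn replicate 3 (highest adjusted p = 0.105). The call against 1 dpn was lost in 7 of 22 fits that left out 1 array each.

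**Figure D2:**
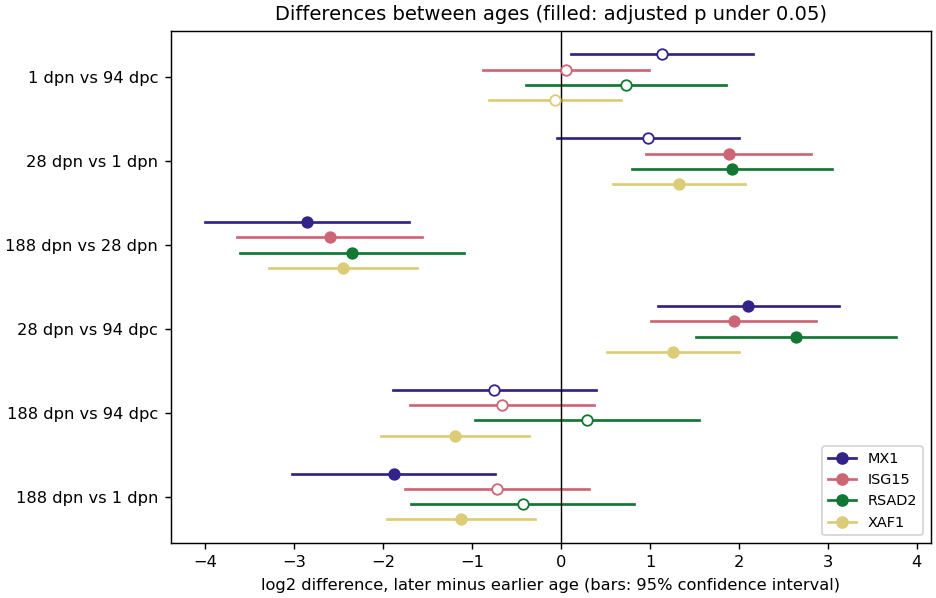
Log2 difference, later age minus earlier age, of the 4 genes in the 6 comparisons of ages, with 95% intervals from limma and filled points where the difference was called. The intervals for 28 dpn against 94 dpc lie above 0 and those for 188 dpn against 28 dpn lie below 0 for all 4 genes.

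MX1, ISG15 and the ordinary RSAD2 probe set differed strongly between animals of the same age, and XAF1 less so. The residual SD on the log2 scale was 0.92 for MX1, 0.83 for ISG15, 1.02 for RSAD2 and 0.66 for XAF1, beside a median of 0.52 over all tested probe sets. Among probe sets within 0.5 log2 units of the same mean level, that placed MX1 at the 97.7th percentile, ISG15 at the 97.9th, RSAD2 at the 97.8th and XAF1 at the 68.4th. On the same measure the dim RSAD2 5′, middle and 3′ controls lay at percentiles of 0.99, 0.75 and 91.2. The 94 dpc replicate 5 animal had the highest signal of its age in all 4 genes. The 1 dpn replicate 5 animal was highest in 3 of 4, its ISG15 being second highest, and 28 dpn replicate 6 was highest in 3 of 4, its MX1 being second highest. The 1 dpn replicate 5 array also had the lowest GAPDH 5′ to 3′ ratio of the 22, 0.14, and the part of RNA quality in its high signals was not tested.

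Across animals of the same age, deviations of ISG15, RSAD2 and XAF1 correlated with each other and MX1 correlated with ISG15 and RSAD2. After subtraction of the age means, the Pearson correlation over 22 arrays was 0.69 for ISG15 and RSAD2 (Spearman 0.70), 0.65 for ISG15 and XAF1 (Spearman 0.64) and 0.63 for RSAD2 and XAF1 (Spearman 0.66). MX1 correlated at 0.61 with ISG15 (Spearman 0.55) and 0.60 with RSAD2 (Spearman 0.58). The p-values, from 100000 permutations within ages and adjusted over the 6 pairs, were 0.00183, 0.00183, 0.00855, 0.0135 and 0.00855 for Pearson in that order, and for Spearman 0.00502, 0.00502, 0.00502, 0.0203 and 0.0107. MX1 and XAF1 did not pass, with r = 0.31 (adjusted permutation p = 0.177, Spearman 0.31, adjusted permutation p = 0.200). For each pair the 2 arrays farthest from the median of the first-named gene were then left out. For MX1 with ISG15 or RSAD2 these were 94 dpc replicate 3 and 28 dpn replicate 2, so 94 dpc replicate 5 stayed in. For ISG15 with RSAD2 or XAF1 they were 94 dpc replicates 3 and 5. For RSAD2 and XAF1 they were 94 dpc replicate 5 and 1 dpn replicate 5. The first 5 coefficients were then 0.56, 0.62, 0.53, 0.49 and 0.59. These values share array and scaling.

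Within single ages the correlations were of uneven size. At 94 dpc the 6 pairs ranged from 0.68 (MX1 and RSAD2) to 0.94 (ISG15 and XAF1), over 6 animals that included the high replicate 5. At 28 dpn they ranged from 0.43 to 0.88, and at 1 dpn from 0.20 (MX1 and ISG15) to 0.83 (MX1 and RSAD2). The 4 animals at 188 dpn are too few for a correlation, and there the order of the genes differed: replicate 1 was highest in MX1 and ISG15 and lowest in XAF1. Ranked by correlation of these deviations with all 24028 other probe sets, RSAD2 came 8th for ISG15, and XAF1 came 14th. For MX1, ISG15 came 68th, RSAD2 73rd and XAF1 2741st.

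**Figure D3:**
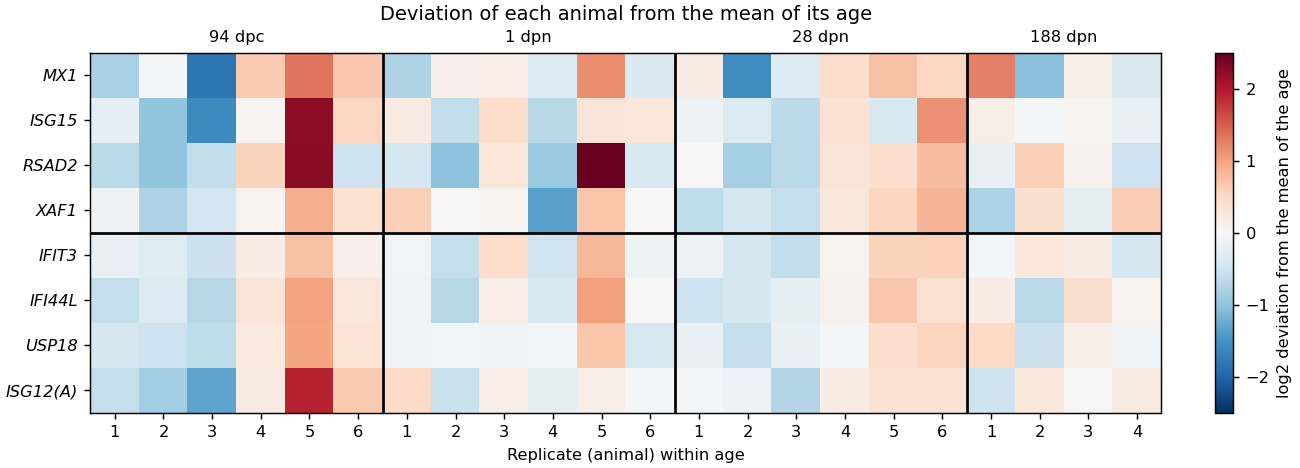
Deviation of each array from the mean of its age, in log2 units by colour (red above, blue below), with arrays in columns by age and replicate. The upper 4 rows are MX1, ISG15, RSAD2 and XAF1, the lower 4 the genes most like them, and the 94 dpc replicate 5 column is above its age mean in all 8 rows.

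The genes whose pattern was most like these 4 are known interferon-stimulated genes for the most part. Likeness was the Pearson correlation with the mean of the 4 standardized profiles, over 22 arrays and 5720 genes with a mean signal above background, and it is given as a description. IFIT3, which binds viral RNA in a complex with other IFIT proteins, came first with r = 0.91, followed by IFI44L (0.86), USP18 (0.86), the interferon-inducible ISG12(A) (0.83), TAP1 (0.81), LOC100513601 (0.79), MX2 (0.78) and TAPBP (0.77). TAP1 and TAPBP load peptides on MHC class I molecules, and USP18 removes ISG15 from proteins and dampens the receptor. On deviations from the age means the first 4 were again IFIT3 (0.89), IFI44L (0.85), USP18 (0.83) and ISG12(A) (0.83), and the next was the ubiquitin ligase UBE4B at 0.68. ZBP1 (0.65), YME1L1 (0.62) and LOC733579 (0.61) completed the 8. For comparison, the 4 genes themselves had r of 0.80 (MX1), 0.91 (ISG15), 0.85 (RSAD2) and 0.82 (XAF1) with the mean of the other 3 over the 22 arrays.

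The 94 dpc replicate 5 animal stood out in these neighbours too, which were chosen for their likeness. Its signals were 539 for IFIT3, 618 for IFI44L, 639 for USP18 and 4849 for ISG12(A), in each case the highest of the 6 fetal samples. The median of the 6 was 311 for IFIT3, 301 for IFI44L and 306 for USP18.

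The wider interferon pathway was taken by role, starting with the sensors and inducers. Of 18 listed genes 9 were measured, and at 28 dpn 3 were called higher than at 1 dpn and none lower, beside 14% and 8.38% of all tested. With quantile normalization, centring or a pseudocount of 1, 1 was called higher. DDX58 (RIG-I, a sensor of viral RNA) had a median signal of 214 at 28 dpn, against 35.9 at 1 dpn, a log2 difference of 2.22 (SE 0.30, adjusted p = 1.6e-05). DDX58 was above background on 1 of 6 arrays at 1 dpn, so the size of that difference rests partly on signals below background. The calls of IRF7, a factor that amplifies interferon production (log2 1.34, adjusted p = 0.0467), and of the DNA sensor TLR9 (log2 1.05, adjusted p = 0.0404) were near the threshold. TLR9 was above background on 7 of 22 arrays and its F test was not called (adjusted p = 0.103). ZBP1, a sensor of Z-form nucleic acid, was below background on all 4 arrays at 188 dpn and was at least 1.73-fold lower there than at 28 dpn (adjusted p = 0.00151). TBK1, a kinase that activates IRF3, rose at 188 dpn, with a median of 405 at 188 dpn, against 219 at 28 dpn (log2 0.78, adjusted p = 0.0358). IRF3 itself was lower at 188 dpn than at 94 dpc, with a log2 difference of -1.10.

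Of 10 listed interferon ligands 3 were measured, and they differed in level. IFNB1 was below background on all 22 arrays. IFNA1 was above it on 21 of 22 and was not called over the ages (F test adjusted p = 0.538, log2 -0.59 with SE 0.44 at 188 dpn against 94 dpc), with mean signals of 177, 156, 165 and 112 at 94 dpc, 1 dpn, 28 dpn and 188 dpn. IFNG, the type II interferon, passed background on 1 of 6 arrays at 28 dpn and 1 of 4 at 188 dpn. IFNG was called higher at 28 dpn than at 94 dpc (log2 0.98, adjusted p = 0.0373) and at 188 dpn than at 94 dpc (log2 1.32, adjusted p = 0.0103), within signals that mostly lay below background.

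Receptor and signalling genes were less uniform. Of 12 listed genes 10 were measured. At 28 dpn 3 were called higher and 1 lower than at 1 dpn, beside 14% and 8.38% of all tested. At 188 dpn 4 were called lower and none higher than at 28 dpn, beside 8.2% and 3.65%. With quantile normalization or centring 2 were called lower in the second comparison. IFNAR1 had a median signal of 408 at 28 dpn, against 154 at 1 dpn (log2 1.24, SE 0.23, adjusted p = 0.000363). IFNGR1, of the interferon gamma receptor, and the kinase JAK2 also rose (log2 0.79 and 1.25), and IRF2, a repressor, fell by 0.77. At 188 dpn against 28 dpn IFNAR2 (log2 -0.86), STAT2 (-0.90), IRF9 (-1.21) and IRF1 (-1.58) fell. IFNAR2 was brightest in the fetus, with a median signal of 153 at 188 dpn, against 503 at 94 dpc, and a log2 difference of -1.67 (SE 0.24, adjusted p = 1e-05). TYK2 also was lower at 188 dpn than at 94 dpc (log2 -0.92). The dimmer probe sets of IFNAR2 and TYK2 were not called in that comparison.

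Among 6 measured of 7 feedback genes, USP18 was called in both steps around 28 dpn. Its median signal was 482 at 28 dpn, against 211 at 1 dpn (log2 1.15, SE 0.27, adjusted p = 0.00338), and it was lower at 188 dpn than at 28 dpn (log2 -1.46, SE 0.30, adjusted p = 0.00268). At 28 dpn against 94 dpc it was not called (log2 0.68, adjusted p = 0.0609). PIAS1, a SUMO ligase that restrains interferon signalling, rose (log2 0.91) and the phosphatase PTPN2 fell (log2 -0.79) at 28 dpn against 1 dpn. USP18 was the single measured gene among 6 listed that attach ISG15 to proteins or remove it.

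Other type I interferon-stimulated genes moved in the direction of MX1, ISG15, RSAD2 and XAF1 without exception among those called in these 3 comparisons. Of 53 listed, 24 were measured. At 28 dpn 9 were called higher and none lower than at 1 dpn, beside 14% and 8.38% of all tested. Against 94 dpc 10 were called higher and none lower at 28 dpn, beside 13.1% and 17.2%. At 188 dpn 11 were called lower and none higher than at 28 dpn, beside 8.2% and 3.65%. In those comparisons 15, 14 and 13 of the 24 were not called. The median log2 difference of the 24 was 0.56, 0.73 and -0.83 in those comparisons. The largest of the named rises was that of IFIT1, a binder of viral RNA ends, with a median signal of 413 at 28 dpn, against 89.2 at 94 dpc (log2 2.11, SE 0.22, adjusted p = 2.8e-07). IFI44L had 907 at 28 dpn, against 228 at 1 dpn (log2 1.91, SE 0.31, adjusted p = 0.000125). IFIT3 fell to a median of 128 at 188 dpn, against 617 at 28 dpn (log2 -2.25, SE 0.30, adjusted p = 6.1e-05). PARP12, an ADP-ribosyltransferase, fell to 122 at 188 dpn, against 545 at 28 dpn (log2 -2.13, SE 0.26, adjusted p = 2e-05), with no call at 28 dpn against 1 dpn. Of the other, dimmer IFIT1 probe sets at 28 dpn against 94 dpc, 1 was called (log2 1.75, adjusted p = 0.00509) and 1 was not (log2 0.62, adjusted p = 0.105).

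Of 16 listed genes induced mainly by interferon gamma, 13 were measured. At 28 dpn 8 were called higher and 3 lower than at 1 dpn, beside 14% and 8.38% of all tested. At 188 dpn 6 were called lower and none higher than at 28 dpn, beside 8.2% and 3.65%. The 3 called lower at 28 dpn than at 1 dpn were CIITA (at least 1.12-fold), B2M (log2 -0.51) and WARS (log2 -0.69). CD74, the MHC class II invariant chain, had a median of 773 at 28 dpn, against 132 at 1 dpn (log2 2.74, SE 0.37, adjusted p = 1.6e-05). PSME1, a proteasome activator subunit, had 3607 at 28 dpn, against 1108 at 1 dpn (log2 1.46). The guanylate-binding proteins GBP1 and GBP2 had log2 differences of 1.62 and 2.24, with GBP2 above background on 1 of 6 arrays at 1 dpn. GBP1 was called higher in each step to 28 dpn and lower at 188 dpn than at 28 dpn (log2 -2.25). Its log2 difference at 1 dpn against 94 dpc was 1.52 (SE 0.54, adjusted p = 0.0329). The 1 dpn signals of GBP1 ran from 83.7 to 978 with a median of 185. With only the 2 evenly covered 1 dpn arrays, no gene of this list was called at 1 dpn against 94 dpc. Centring each array on its own median left 3 called higher and 3 lower in this list at 28 dpn against 1 dpn. Keeping only the 2 evenly covered 1 dpn arrays left 3 higher and 2 lower in that comparison.

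**Figure D4:**
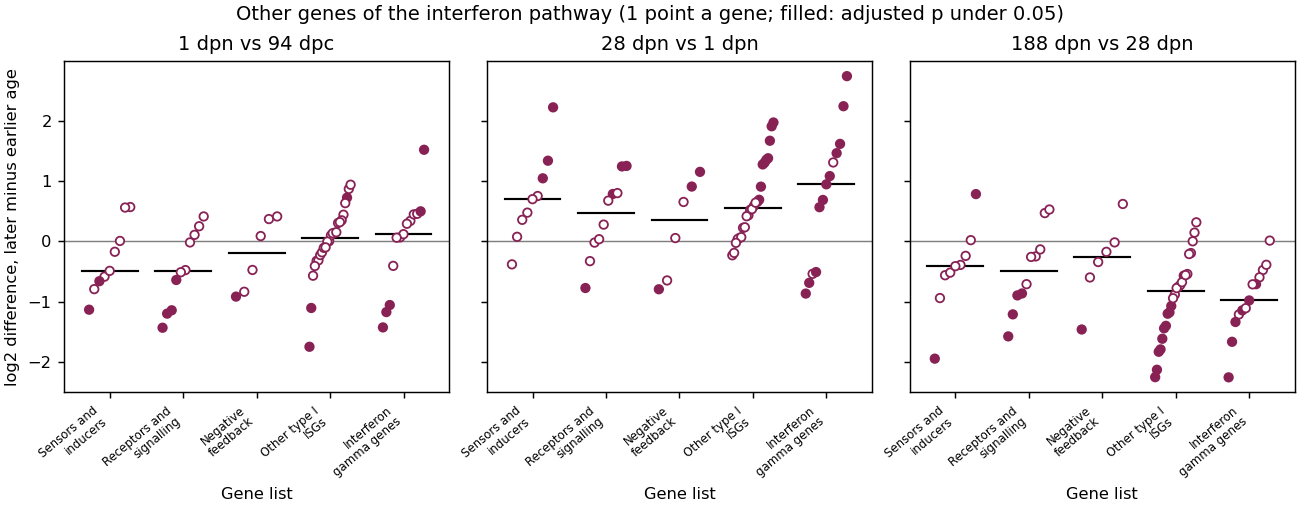
Log2 difference, later age minus earlier age, of each measured gene in 5 lists of interferon-related genes, with 1 panel each for 1 dpn against 94 dpc, 28 dpn against 1 dpn and 188 dpn against 28 dpn. Each point is a gene, filled where it was called, and the bar is the median of the list, which for other type I interferon-stimulated genes (ISGs) was 0.05, 0.56 and -0.83 in the 3 panels.

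Markers of other cells moved with the ages as well, and their part in the differences was not tested. The macrophage list, 9 measured of 12, had a summed signal of 3168 to 11537 at 28 dpn, against 1840 to 3964 at 1 dpn and 3383 to 4306 at 94 dpc. At 28 dpn 4 of its genes were called higher and none lower than at 1 dpn, beside 14% and 8.38% of all tested. Against 94 dpc 4 were called higher and 1 lower at 28 dpn, beside 13.1% and 17.2%. At 188 dpn 2 were called lower and none higher than at 28 dpn, beside 8.2% and 3.65%. At 188 dpn the sum was 1689 to 6114. The T and NK cell list, 8 measured of 10, had 427 to 802 at 28 dpn, against 138 to 499 at 1 dpn. All 8 endothelial markers were measured, with a median sum of 11605 at 28 dpn, against 5043 at 1 dpn and 16407 at 94 dpc, and of 3993 at 188 dpn. The hepatocyte list, 10 measured of 11, had a median sum of 17821 at 94 dpc, 3995 at 1 dpn, 2980 at 28 dpn and 2745 at 188 dpn. The dendritic cell list, 3 measured of 8, had 348 to 721 at 28 dpn, against 265 to 470 at 1 dpn and 388 to 507 at 94 dpc. Of those 3 genes 1 was called higher and none lower at 28 dpn against 1 dpn, beside 14% and 8.38% of all tested. The median log2 difference of the 3 was -0.06. Among single animals, 94 dpc replicate 5 had the highest dendritic sum of its age, 507, and a macrophage sum of 3839 beside a median of 4019. The 1 dpn replicate 5 animal had the second highest dendritic sum of its age, 464, and a macrophage sum of 2115 beside a median of 2249. The 28 dpn replicate 6 animal had a dendritic sum of 467 and a macrophage sum of 7983, beside medians of 447 and 7065. The highest sums of that age, 721 and 11537, were those of 28 dpn replicate 5, which was highest in MX1. Over all 22 arrays, mean deviations of the dendritic genes from their age means had r of 0.61 with RSAD2, 0.44 with MX1, 0.29 with ISG15 and 0.16 with XAF1. For the macrophage genes r was 0.04, 0.37, 0.14 and 0.07 in that order. These correlations were not tested. Of the 3 dendritic genes, IRF8 had the highest median signal, 226, and TCF4 was above background on 4 of 22 arrays.

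The scaling of arrays bears on the comparisons through the median of all probe sets. Centring each array on its own median moved the median log2 difference of all tested probe sets to 0.18 for 1 dpn against 94 dpc, -0.09 for 28 dpn against 1 dpn, 0.08 for 188 dpn against 28 dpn and 0.20 for 188 dpn against 94 dpc, from -0.08, 0.10, -0.12 and -0.07 as deposited. Of all called probe sets 62.5% were higher at 28 dpn than at 1 dpn as deposited, and 39.9% after centring. For 188 dpn against 28 dpn the share was 30.8% and 60.0%. For 28 dpn against 1 dpn and 188 dpn against 28 dpn, the 4 ordinary probe sets kept their direction after centring, and so did the calls in the list of other interferon-stimulated genes (7 higher and 9 lower). For the other comparisons it was less stable. At 1 dpn against 94 dpc XAF1 turned from -0.07 to 0.19, and that list gave 6 called higher and 2 lower after centring, against 1 and 2 as deposited. At 188 dpn against 94 dpc the list gave 6 higher and 4 lower after centring, against 1 and 5 as deposited.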

How the data were processed

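Labelled cRNA from 22 samples was hybridised to an Affymetrix porcine array. The deposited intensity values are linear (GCOS 1.1.1 is the software named in the submitters' processing notes), with a mean of 500 on every array after trimming 2% at each end. They were used as log2(intensity + 16), which understates changes of dim genes. Tests covered 24029 of 24123 probe sets, among them 30 array controls annotated to 1 pig gene, and 94 further controls did not enter. Ages were compared with limma 3.58.1 (R 4.3.3, statmod 1.5.0), with 1 mean per age and Benjamini-Hochberg adjustment over all tested probe sets. The number of arrays limits precision. Where every dim array lay below background, folds are lower bounds. In tested probe sets 10099 carried 1 symbol, 198 several and 13732 none. Symbols follow the platform annotation, updated through RefSeq. Named pathway genes were up to 4 called genes per list with the smallest F test adjusted p, on the brightest probe set, and a few others named by their counts or neighbours. The genes and lists were chosen with earlier results of these data known. The fit was tested on simulated data. Scan dates are not given in the sources used here, and no genome coordinates were used.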

Additional observations from a re-analysis of the deposited data

Results flagged for a closer look

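At 1 dpn 1 value stood far from the others of its age. XAF1 had a signal of 25.4 on 1 dpn replicate 4, below the other 5 values, and the gap to the nearest of them was 0.655 of the whole range, above Dixon's critical value of 0.625 for 6 samples. This was 1 of 28 groups tested, and chance flags about 1 in 20. That array was also among the 4 with uneven GAPDH signal, with a 5′ to 3′ ratio of 0.26, and the part of RNA quality was not tested.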

How the results depend on the processing

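The calls of the 4 ordinary probe sets at 28 dpn against 94 dpc and at 188 dpn against 28 dpn held under every alternative run, except that XAF1 and the dim RSAD2 probe sets were not among those tested when only probe sets brighter than the median were kept. No paired analysis was possible because the labels give no replicate numbers shared between ages. With arrays centred on their medians, 2 of the 7 probe sets were called at 1 dpn against 94 dpc and 1 at 188 dpn against 94 dpc. With quantile normalization 1 was called at 1 dpn against 94 dpc, MX1 at log2 1.39, and XAF1 turned to 0.087 (0.19 when centred). With only brighter probe sets the calls numbered 2 (28 dpn against 1 dpn), 3 (28 dpn against 94 dpc), 0 (188 dpn against 94 dpc) and 1 (188 dpn against 1 dpn). Fitting only the 2 ages compared gave 3365 calls over all probe sets at 28 dpn against 1 dpn (main 5374), 4699 at 188 dpn against 1 dpn (main 7178) and 1 of the 7 there. With the GAPDH ratio as a covariate 1 of the 7 was called at 188 dpn against 1 dpn, and RSAD2 reversed, to 0.51 there and -0.20 at 1 dpn against 94 dpc, as did its 3′ control (0.32 and -0.0040). With only the evenly covered 1 dpn arrays, an alternative chosen after seeing the data, 2 of 7 were called at 28 dpn against 1 dpn and XAF1 turned to 0.24 at 1 dpn against 94 dpc. In the same setting other interferon-stimulated genes gave 7 higher and 0 lower at 28 dpn against 1 dpn. The mean of the RSAD2 probe sets gave 0.076 at 188 dpn against 1 dpn, and its 3′ control 0.016 with a pseudocount of 1 and 0.055 with array weights. Leaving out 1 array gave 0 to 1 of the 7 called at 1 dpn against 94 dpc and 0 to 2 at 188 dpn against 94 dpc. Among uncalled differences, leave-one-out values ranged from -0.26 to 0.50 for ISG15 and from -0.22 to 0.20 for XAF1 at 1 dpn against 94 dpc, from -0.64 to 0.061 for RSAD2 and from -0.41 to 0.25 for its 3′ control at 188 dpn against 1 dpn. The causes were not tested.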
